A study of Homo sapiens with 6 samples.

Results

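The APOBEC3 genes encode 7 human cytidine deaminases, APOBEC3A, APOBEC3B, APOBEC3C, APOBEC3D, APOBEC3F, APOBEC3G and APOBEC3H. They were found by symbol, and all 7 were among the 20289 genes of the expression table. RNA had been sequenced from 3 libraries labelled LINC00665 and 3 libraries labelled Vector. Both groups are labelled as T24, an established human bladder cancer cell line, cultured with serum in RPMI 1640, and lipofection was used to bring in a pcDNA3.1 plasmid. In the first group the plasmid carried LINC00665, a long non-coding RNA, and in the second it was the Vector plasmid alone. The labels give 3 independent experiments, and the stated purpose was to look for the mechanism of LINC00665 in lymph node metastasis of bladder cancer. T24 is a single cell line, and introduction of a plasmid brings foreign DNA into the cells of both groups. LINC00665 itself was not analysed here, so the level reached by the plasmid was not checked.

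The identity of the cells was checked, and 3 of the 6 libraries did not match T24, which is the line that the labels give. No comparison would be left without these 3 libraries, so no fold change below could be computed without them, and cell line and plasmid cannot be told apart in any of them. Deposited counts summed to between 19114096 and 22725687 per LINC00665 library, against 17289788 to 20023417 per Vector library. The log2 CPM (CPM being the count scaled to library size) of libraries with the same label correlated at 0.967 to 0.990 across genes, and that of libraries with different labels at 0.659 to 0.680. In edgeR's quasi-likelihood test with Benjamini-Hochberg adjustment, 8611 of 13552 tested genes (63.5%) passed an adjusted p of 0.05, 34.2% higher and 29.3% lower in the LINC00665 libraries. The 16 urothelial markers summed to 9720 to 11500 CPM in LINC00665 libraries and to 1040 to 3210 CPM in Vector libraries. KRT5, a basal urothelial keratin, averaged 834 CPM in LINC00665 libraries and 0.383 CPM in Vector libraries, and GATA3, a urothelial transcription factor, had 4995 counts in all in LINC00665 libraries and 3 in Vector libraries. Both were thus all but absent from the Vector libraries. Of the 13 urothelial markers tested, 12 were called higher in LINC00665 libraries and 0 lower. UPK1A, also on the urothelial list, had instead more counts in Vector libraries, 33 against 2 in LINC00665 libraries. The 11 kidney tubule markers ran the other way, with 15.6 to 17.2 CPM in LINC00665 libraries and 381 to 544 CPM in Vector libraries. None of these markers was compared with reference values of T24, so they do not show which libraries depart from that line. The part of this difference in cell type markers in the APOBEC3 results was not tested.

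APOBEC3 enzymes convert cytosine to uracil in single-stranded DNA. They restrict retroviruses, some DNA viruses and mobile elements. In retroviruses they mutate the complementary DNA made during replication, and HIV-1 counters several of them with its Vif protein, which sends them for degradation. In tumours, APOBEC3A and APOBEC3B are regarded as the main sources of the C-to-T and C-to-G mutations in TC sequence contexts, a mutation signature that is abundant in bladder cancer. APOBEC3A, APOBEC3C and APOBEC3H have a single deaminase domain, and APOBEC3B, APOBEC3D, APOBEC3F and APOBEC3G have a pair of them. The genes arose by duplication and stand in a row on chromosome 22, so parts of their transcripts are the same.

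Of the 7 members, 5 had enough counts to be tested. APOBEC3G rose in the LINC00665 libraries, APOBEC3D fell, and APOBEC3B, APOBEC3C and APOBEC3F did not pass the test, so 2 of 5 tested members (40%) were called, against 63.5% of all tested genes. The median log2 fold change of the 5 tested members was 0.35, and that of all tested genes was 0.03. The groups did not overlap for APOBEC3C, APOBEC3D and APOBEC3G, 3 of the 5 tested members, and such separation was seen for 70.2% of all tested genes, 37.9% with the LINC00665 libraries higher, as for APOBEC3C and APOBEC3G, and 32.3% with them lower, as for APOBEC3D. APOBEC3G and APOBEC3D also exceeded an absolute log2 fold change of 1, as did 42% of all tested genes at the same adjusted p. APOBEC3A and APOBEC3H were at or near 0 counts in most libraries. With 3 libraries in each group, a permutation of the labels could not give a two-sided exact p under 0.1 for a single gene, so the p-values below come from the fit over all genes.

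**Figure D1:**
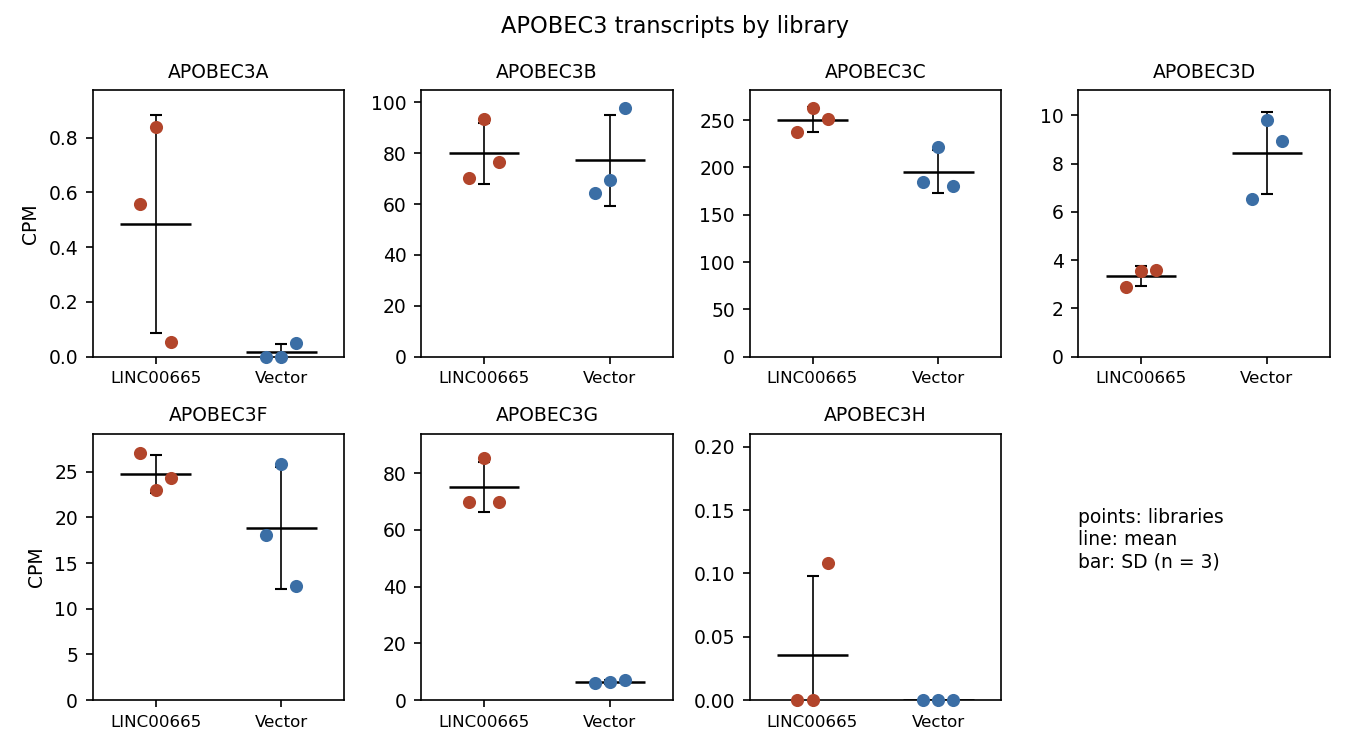
CPM of each APOBEC3 gene (linear axes from 0, one panel a gene) in the LINC00665 and Vector libraries, with points for libraries, a line for the mean and a bar for the SD (n = 3, cut at 0). APOBEC3G stands at 69.9 to 85.4 CPM in LINC00665 libraries against 5.92 to 7.24 CPM in Vector libraries, APOBEC3D is the reverse at lower levels, and the points of APOBEC3B and APOBEC3F overlap between the groups.

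APOBEC3G, the best studied restriction factor of Vif-deficient HIV-1 and a deaminase that prefers CC over TC contexts, had 69.9, 85.4 and 70.0 CPM in LINC00665 libraries, against 5.92, 6.33 and 7.24 CPM in Vector libraries. Every LINC00665 library was far above every Vector library, and within each group the spread was small. The means were 75.1 ± 8.95 CPM in LINC00665 libraries and 6.50 ± 0.677 CPM in Vector libraries (SD, n = 3 each). The log2 fold change was 3.53 ± 0.17 (SE), 11.6-fold higher in the LINC00665 libraries (edgeR adjusted p = 1.1e-06). Its 95% interval ran from 3.19 to 3.87 on the log2 scale. The values rest on 1504.41, 1626.89 and 1299.77 counts in LINC00665 libraries and on 127, 114 and 140 counts in Vector libraries. APOBEC3G passed the test in all 16 other processing settings tried, at log2 fold changes of 3.10 to 3.61. In bulk RNA of this kind, a larger share of cells with a transcript and more of it per cell cannot be told apart.

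APOBEC3G is known for its abundance in T cells and other leukocytes, so leukocyte markers were set beside it. PTPRC, the pan-leukocyte marker CD45, had 0 counts in LINC00665 libraries and 1 count in Vector libraries. CD2, CD3D, MS4A1, NKG7, GNLY, LYZ and FCGR3A, which mark T, B, natural killer and myeloid cells, were at 0 in all 6 libraries. Of the 18 leukocyte markers, 9 were at 0 in the LINC00665 libraries and 10 in the Vector libraries. The summed level of the list was nonetheless 118 to 190 CPM in LINC00665 libraries, against 11.7 to 18.8 CPM in Vector libraries. CD74, the invariant chain of MHC class II, which epithelial tumour cells can also express, made up most of that sum, at 122 CPM in LINC00665 libraries and 0.169 CPM in Vector libraries. Of the 5 leukocyte markers that passed the count filter, 4 were higher, namely CD74, CSF1R, CD14 and CD68. CD74, CSF1R and CD14 passed the filter only through the LINC00665 libraries. CSF1R had 65 counts in LINC00665 libraries and 0 in Vector libraries. CD14 stood at 5.18 CPM in LINC00665 libraries and 0.284 CPM in Vector libraries, and CD68 at 24.5 and 13.7 CPM in that order. The call of CD68, a lysosomal protein of macrophages and many other cells, was lost without Vector replicate 1 (edgeR adjusted p = 0.052) and without LINC00665 replicate 2 (edgeR adjusted p = 0.099).

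APOBEC3D, another restriction factor that HIV-1 Vif targets, went the other way. It had 2.88, 3.57 and 3.61 CPM in LINC00665 libraries, against 6.52, 9.82 and 8.95 CPM in Vector libraries. The groups did not overlap, but the gene was weakly expressed in both. The means were 3.35 ± 0.408 CPM in LINC00665 libraries and 8.43 ± 1.71 CPM in Vector libraries (SD, n = 3 each), and the values rest on 61.57, 68.17 and 67.31 counts against 139.64, 176.84 and 172.79 counts. The log2 fold change was -1.33 ± 0.24 (SE; 95% interval -1.80 to -0.86), 2.51-fold lower in the LINC00665 libraries (edgeR adjusted p = 0.0015). APOBEC3D passed the test in all 16 other settings, at log2 fold changes of -1.49 to -0.89.

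The exons of APOBEC3D are largely those of another annotated gene. A read-through gene of the APOBEC3C and APOBEC3D region, ENSG00000284554, covers 2104 of the 2528 exonic bases of APOBEC3D (83.2%). With the counts of APOBEC3D and this gene summed, the log2 fold change was -1.37 (edgeR adjusted p = 0.0019). The sum of APOBEC3D and APOBEC3F had a log2 fold change of 0.05 (edgeR adjusted p = 0.86), but APOBEC3F makes up most of that sum, with 1470.42 counts against 197.05 for APOBEC3D in LINC00665 libraries and 1095.32 against 489.27 in Vector libraries, so it is no measure of APOBEC3D. All 6 counts of APOBEC3D were fractional, as they are where reads are divided between features.

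APOBEC3C, a single-domain enzyme with weak antiviral activity, was the most abundant member in every library. It had 237, 263 and 251 CPM in LINC00665 libraries, against 185, 222 and 180 CPM in Vector libraries. The lowest LINC00665 library lay above the highest Vector library, by a small margin. The means were 250 ± 13.1 CPM in LINC00665 libraries and 196 ± 22.6 CPM in Vector libraries (SD, n = 3 each). The log2 fold change of 0.35 ± 0.14 (SE) did not pass the threshold (edgeR adjusted p = 0.056) and stands for a 1.28-fold higher level, with a 95% interval of 0.08 to 0.63 on the log2 scale. APOBEC3C lies close to the threshold, since it passed in 7 of the 16 other settings, with adjusted p-values of 0.016 to 0.24, among them the fit without Vector replicate 2 (edgeR adjusted p = 0.016). Its counts were whole in all 6 libraries.

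APOBEC3B, a nuclear enzyme and a mutator of tumour genomes, had 70.1, 93.5 and 76.4 CPM in LINC00665 libraries, against 64.2, 69.6 and 97.8 CPM in Vector libraries. The groups overlapped throughout. The means were 80 ± 12.1 CPM in LINC00665 libraries and 77.2 ± 18 CPM in Vector libraries (SD, n = 3 each). The log2 fold change was 0.05 ± 0.20 (SE; edgeR adjusted p = 0.83), with a 95% interval of -0.34 to 0.44. Any difference of APOBEC3B was therefore bounded at about that size, and its direction was not determined, being positive in 10 and negative in 6 of the 16 other settings. Summing the counts of APOBEC3A and APOBEC3B gave 0.06 (edgeR adjusted p = 0.81).

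APOBEC3F, a partner of APOBEC3G in restricting HIV-1, had 27.0, 23.0 and 24.3 CPM in LINC00665 libraries, against 18.1, 25.8 and 12.5 CPM in Vector libraries. Vector replicate 2 lay within the range of the LINC00665 libraries and the other Vector libraries below it. The means were 24.8 ± 2.05 CPM in LINC00665 libraries and 18.8 ± 6.68 CPM in Vector libraries (SD, n = 3 each). The log2 fold change of 0.40 ± 0.25 (SE) did not pass (edgeR adjusted p = 0.20; 95% interval -0.10 to 0.90). Without Vector replicate 2 alone it passed, at 0.69 (edgeR adjusted p = 0.014). It did not pass in the other 15 of the 16 settings.

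APOBEC3A, the most active deaminase of the family and one induced by interferon in myeloid cells and by stress in epithelial cells, was scarce. It had 12.11, 16.2 and 1.05 counts in LINC00665 libraries, against 0, 0 and 1.06 counts in Vector libraries. Nearly all of its signal came from LINC00665 replicates 1 and 2. LINC00665 replicate 3 stood at 0.0538 CPM, next to the highest Vector library at 0.0517 CPM. Over the groups, 29.36 counts stood against 1.06 counts, a ratio of 28.8 after scaling to library size (95% interval from counting 4.78 to 1180), which covers counting error only. The gene had too few counts to be tested in the main fit. Without the filter it passed at a log2 fold change of 4.39 (edgeR adjusted p = 0.016), as it did without Vector replicate 2 (4, edgeR adjusted p = 0.039), without Vector replicate 3 (6.28, edgeR adjusted p = 0.026) and without LINC00665 replicate 3 (4.90, edgeR adjusted p = 0.0034), but not without Vector replicate 1 (3.89, edgeR adjusted p = 0.060). These fitted values of a gene near 0 in one group depend on the prior count and are no measure of its size.

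APOBEC3H, which has alleles of differing stability in people and restricts HIV-1 in its stable forms, had 0, 0 and 2 counts in LINC00665 libraries and 0 in each Vector library. Both groups are at or under the floor of 3 counts over a group, which is 0.0507 CPM in the LINC00665 libraries and 0.0510 CPM in the Vector libraries. No fold was computed.

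Levels of the members were compared with each other in FPKM, in which the fragment count is divided by gene length and library size. In LINC00665 libraries, APOBEC3C led at 102 ± 2.76 FPKM, with APOBEC3B at 47.4 ± 6.41 and APOBEC3G at 45.3 ± 4.23 FPKM next, and the libraries of this pair overlapped. APOBEC3F at 7.31 ± 1.2, APOBEC3D at 1.99 ± 0.320 and APOBEC3A at 0.343 ± 0.273 FPKM followed in that order in LINC00665 libraries, with APOBEC3H overlapping APOBEC3A. In Vector libraries, APOBEC3C also led at 79.9 ± 7.94 FPKM and APOBEC3B came next at 51.0 ± 11.8 FPKM, but APOBEC3G stood at 4.40 ± 0.452 FPKM. There it could not be separated from APOBEC3D at 4.54 ± 0.420 FPKM, which in turn overlapped APOBEC3F at 7.18 ± 2.41 FPKM (SD, n = 3 in each group). The order thus differs between the groups by the place of APOBEC3G, beside APOBEC3B in LINC00665 libraries and beside APOBEC3D in Vector libraries.

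As a share of the summed APOBEC3 FPKM, APOBEC3G made up 22.2% ± 0.859 in LINC00665 libraries and 2.99% ± 0.226 in Vector libraries (SD, n = 3 each). The APOBEC3B share was 23.2% ± 1.77 in LINC00665 libraries and 34.6% ± 6.83 in Vector libraries, although its CPM overlapped. Shares add up to the whole, so the rise of 1 member lowers the share of the rest. APOBEC3C held 49.8% ± 2.30 in LINC00665 libraries and 54.4% ± 5.51 in Vector libraries. APOBEC3F held 3.61% ± 0.740 and 4.90% ± 1.66, and APOBEC3D 0.972% ± 0.111 and 3.09% ± 0.116, in LINC00665 and Vector libraries in that order. APOBEC3A and APOBEC3H each stayed under 1% of the sum in every library.

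**Figure D2:**
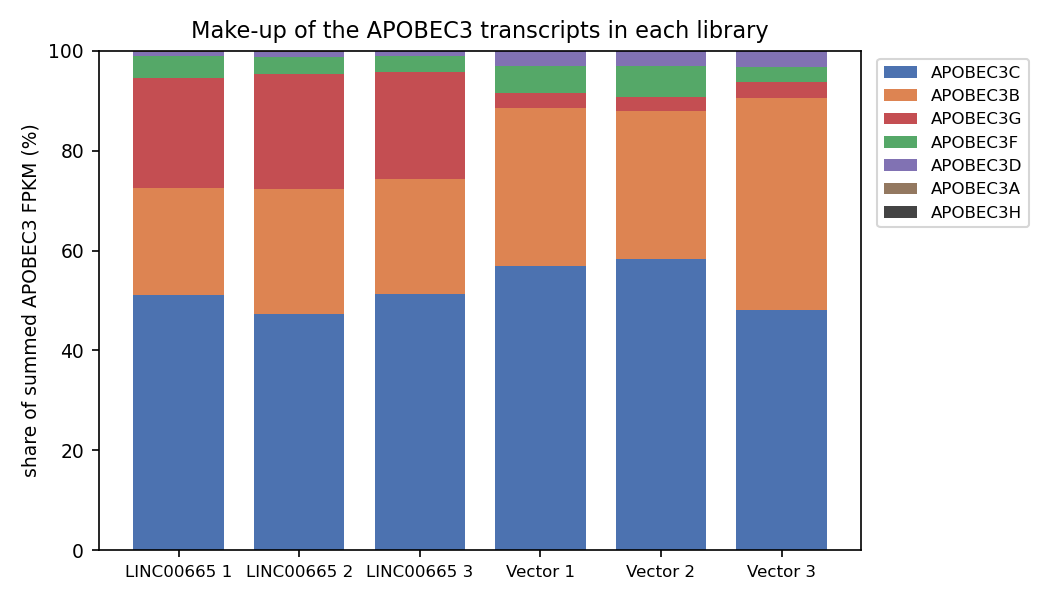
Share of each APOBEC3 gene in the summed APOBEC3 FPKM (percent, stacked bars from 0 to 100) in the 3 LINC00665 and 3 Vector libraries. APOBEC3G takes 21.5% to 23.2% of the sum in LINC00665 libraries and 2.77% to 3.22% in Vector libraries, while APOBEC3C is the largest share in all 6.

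The 7 members summed to 407.1, 469.2 and 425.2 CPM in LINC00665 libraries, against 280.0, 333.3 and 306.8 CPM in Vector libraries. The groups did not overlap, and the ratio of the means was 1.41. In FPKM the sums were 204 ± 11.9 in LINC00665 libraries and 147 ± 9.21 in Vector libraries (SD, n = 3 each), a ratio of 1.39. Most of that difference sits in APOBEC3G. APOBEC3C, which did not pass the test, also stood higher, at 250 CPM in LINC00665 libraries and 196 CPM in Vector libraries. Without APOBEC3G the sums were 359 ± 23.5 CPM in LINC00665 libraries and 300 ± 26.4 CPM in Vector libraries, a ratio of 1.19. In FPKM they were 159 ± 7.92 and 143 ± 8.92 in that order, a ratio of 1.11. No test was made on these sums.

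By the GENCODE v29 annotation of GRCh38, the cluster spans 151 kb of chromosome 22 on the plus strand, in the order APOBEC3A (38952741 to 38992778), APOBEC3B (38982347 to 38992804), APOBEC3C (39014083 to 39020352), APOBEC3D (39021113 to 39033276), APOBEC3F (39040604 to 39053910), APOBEC3G (39077005 to 39087743) and APOBEC3H (39097224 to 39104067). The annotated ends of APOBEC3A and APOBEC3B overlap, since an APOBEC3A transcript reaches into APOBEC3B, and their exons share 348 bases, 14.8% of APOBEC3A and 18.4% of APOBEC3B. An antisense gene, APOBEC3B-AS1, overlaps 12.9% of the exonic bases of APOBEC3B and 6.4% of those of APOBEC3A, partly in the same stretch. The strand setting of the authors' counting is not given in the sources used here, so reads of this pair cannot be told apart. The 5 members tested thus include the member that rose and the one that fell within the same row of genes, with APOBEC3F, which did not pass, between them.

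Identical stretches among the members set how far reads can be assigned. Of all 100-base windows of 1 annotated transcript per gene, 36.5% of those of APOBEC3B occurred letter for letter in another member, 27.3% in APOBEC3A and 6.97% in APOBEC3D. The share was 13.5% for APOBEC3F, 13.0% for APOBEC3A, 11.3% for APOBEC3G and 9.18% for APOBEC3D. It was 0 for APOBEC3C and APOBEC3H. For APOBEC3D it came to 84.4% once the read-through gene was counted too. All shared 100-base windows of APOBEC3G lay in APOBEC3F. With windows of 50 bases the share in other members was 50.5% for APOBEC3B, 24% for APOBEC3F, 22.7% for APOBEC3A and 19.1% for APOBEC3G. It was 15.2% for APOBEC3D, 1.16% for APOBEC3C and 0 for APOBEC3H. Some 50-base windows of APOBEC3G also lay in APOBEC3A and APOBEC3B. Summing the counts of APOBEC3F and APOBEC3G gave a log2 fold change of 1.98 (edgeR adjusted p = 5.9e-05), a setting chosen after seeing the data, and such a sum cannot say which of the pair was higher.

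The deposited values carry traces of that division. Counts departed from whole numbers by more than 0.005 in all 6 libraries for APOBEC3B, APOBEC3D and APOBEC3F, in 4 for APOBEC3A, in 3 for APOBEC3G and in none for APOBEC3C and APOBEC3H, whereas 86.7% of all values of the table were whole. Dividing the count by FPKM and by the library total gives the length the authors' software used for a gene. For APOBEC3G this was 1564 bases in each LINC00665 library and 1562 to 1563 bases in Vector libraries, and for APOBEC3B 1583 to 1597 bases in LINC00665 libraries and 1599 to 1605 bases in Vector libraries. The length was thus nearly fixed for both. For APOBEC3D it was 1662, 1468 and 1677 bases in LINC00665 libraries, against 1709, 2200 and 1933 bases in Vector libraries. For APOBEC3F it was 2978, 2962 and 3794 bases in LINC00665 libraries, against 2574, 2864 and 2880 bases in Vector libraries. The largest length was 1.5 times the smallest for APOBEC3D and 1.47 times for APOBEC3F. Both lie within the 95th percentile of 1.757 over 4490 genes with 50 or more and under 1000 counts in every library, whose median was 1.129. For APOBEC3C, whose counts are higher, it was 1.15 times, against a median of 1.049 and a 95th percentile of 1.304 over 2547 genes with at least 1000 counts in every library. The CPM and FPKM of APOBEC3F differ in these lengths and in the scaling of the libraries, with means of 24.8 and 18.8 CPM but 7.31 and 7.18 FPKM in LINC00665 and Vector libraries in that order. Total-count scaling alone gave APOBEC3F a log2 fold change of 0.24, against 0.40 as reported.

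The cluster lies between CBX6 and CBX7, which encode chromobox proteins of Polycomb complexes, and both of these are read from the other strand. CBX7 fell, at 6.22 ± 0.275 CPM in LINC00665 libraries and 21.6 ± 13.6 CPM in Vector libraries (SD, n = 3 each; log2 fold change -1.80 ± 0.40, SE; edgeR adjusted p = 0.0048), and without Vector replicate 3, at 37.1 CPM the highest, the log2 fold change of CBX7 was -1.16 (edgeR adjusted p = 0.0015). CBX6 stood at 47.9 ± 11.6 CPM in LINC00665 libraries and 101 ± 61.4 CPM in Vector libraries and just missed the threshold (log2 fold change -1.08; edgeR adjusted p = 0.0501). It passed in 7 other settings, among them without Vector replicate 2 (edgeR adjusted p = 0.0026) and without Vector replicate 3 (edgeR adjusted p = 0.049), while without Vector replicate 1, its highest library, it was at -0.51 (edgeR adjusted p = 0.22). Of 14 neighbouring genes, 2 rose, 4 fell and 8 did not pass, with a median log2 fold change of -0.08. Thus 42.9% of the neighbours were called, against 63.5% of all tested genes. Without Vector replicate 2 the number of neighbours that rose was 4. PDGFB, a platelet-derived growth factor chain, had 61.8 CPM in LINC00665 libraries and 206 CPM in Vector libraries (log2 fold change -1.74; edgeR adjusted p = 0.0025). MIEF1, a mitochondrial fission factor, had 58.5 CPM in LINC00665 libraries and 139 CPM in Vector libraries (log2 fold change -1.25; edgeR adjusted p = 0.00026). MGAT3, a glycosyltransferase, had 67 counts in LINC00665 libraries and 3 in Vector libraries, 22.2 times as many per unit of depth (95% interval from counting, 7.28 to 110).

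**Figure D3:**
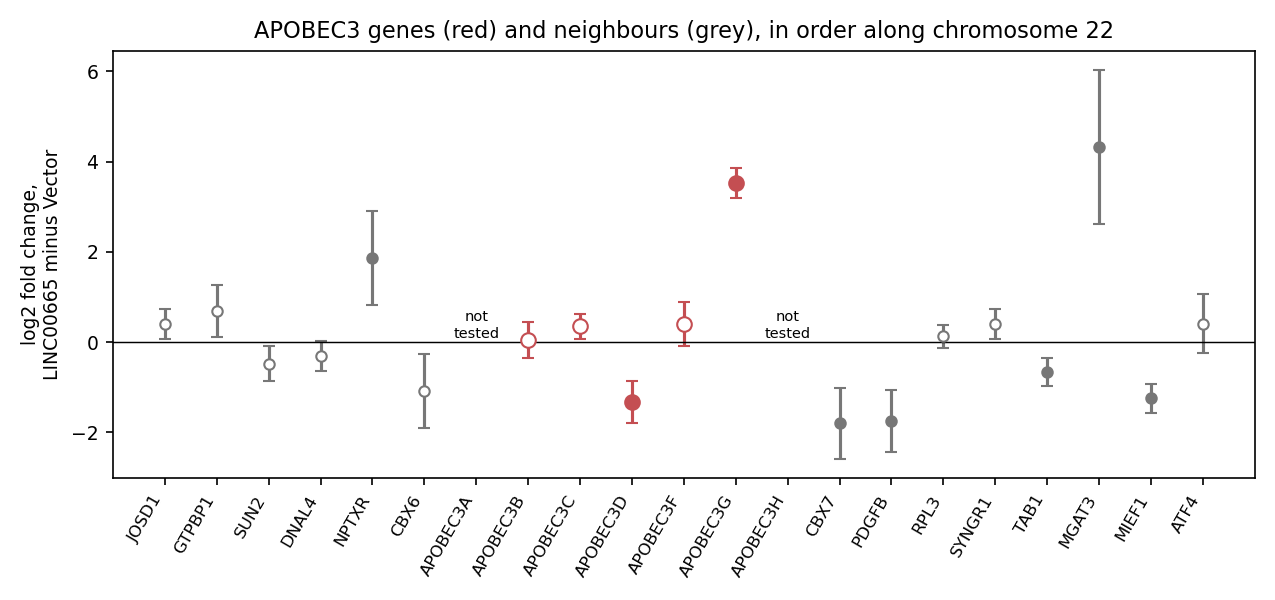
Log2 fold change (LINC00665 minus Vector) of the APOBEC3 genes in red and their neighbours in grey, in their order along chromosome 22, with 95% intervals and filled points for an adjusted p under 0.05. APOBEC3G at 3.53 and APOBEC3D at -1.33 stand 1 gene apart, CBX7 beyond the cluster is at -1.80, and the fitted value of MGAT3 rests on 3 counts in the Vector libraries.

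Other APOBEC genes were close to 0. APOBEC1, the editor of apolipoprotein B messenger RNA in the gut, had 0 in both groups. APOBEC2, a muscle protein, had 0 counts in LINC00665 libraries and 4 in Vector libraries, and APOBEC4 had 2 and 0. None of these was tested, so the APOBEC transcripts measured here were nearly all from APOBEC3B, APOBEC3C, APOBEC3D, APOBEC3F and APOBEC3G. Of 12 deaminases outside the family and cofactors of APOBEC1, 10 were tested, of which 4 rose, 2 fell and 4 did not pass. This is 60% called, near the 63.5% of all tested genes. CDA, which deaminates free cytidine, had 61.9 ± 14.7 CPM in LINC00665 libraries and 0.292 ± 0.420 CPM in Vector libraries (SD, n = 3 each; log2 fold change 7.78; edgeR adjusted p = 1.7e-05). Its log2 fold change was 10.13 without Vector replicate 2, which held 14 of its 16 Vector counts. CDA passed the count filter only through the LINC00665 libraries, and fitted values that rest on so few Vector counts are no measure of its size. RBM47, an RNA-binding cofactor of APOBEC1, had 61.7 CPM in LINC00665 libraries and 7.99 CPM in Vector libraries (log2 fold change 2.95; edgeR adjusted p = 6.6e-06). Among adenosine deaminases acting on RNA, ADARB1 had 63.0 CPM in LINC00665 libraries and 12.1 CPM in Vector libraries (edgeR adjusted p = 1.7e-05), and ADAT1, which acts on transfer RNA, had 22.1 and 60.8 CPM (edgeR adjusted p = 0.00038). The number that fell was 1 without Vector replicate 1, without LINC00665 replicate 2 and without LINC00665 replicate 3.

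The uracil that APOBEC3 enzymes leave in DNA is removed by UNG and repaired by base excision, or copied by bypass polymerases. UNG had 58 ± 3.8 CPM in LINC00665 libraries and 78.5 ± 41.9 CPM in Vector libraries (SD, n = 3 each) and did not pass (log2 fold change -0.44; edgeR adjusted p = 0.32), though it did without Vector replicate 2 (-0.79; edgeR adjusted p = 0.0058). Without Vector replicate 3, UNG was at -0.01 (edgeR adjusted p = 0.99). Of 27 genes of uracil repair and bypass, 5 rose, 7 fell and 15 did not pass, with a median log2 fold change of -0.10. The share called was 44.4%, against 63.5% of all tested genes. APEX2, an abasic site endonuclease, had 120 CPM in LINC00665 libraries and 46.7 CPM in Vector libraries (edgeR adjusted p = 4.4e-05), and POLB, which fills the gap, had 35.6 and 12 CPM (edgeR adjusted p = 8.3e-05). RPA1, of the complex that shields single-stranded DNA, had 109 CPM in LINC00665 libraries and 234 CPM in Vector libraries (edgeR adjusted p = 0.00035), and the bypass polymerase gene POLH had 13.9 and 30.8 CPM (edgeR adjusted p = 0.00041). Without LINC00665 replicate 1 the number that rose was 3, and it was also 3 with total-count scaling.

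Upstream of the APOBEC3 genes, interferon signalling is known to act on APOBEC3A, APOBEC3F and APOBEC3G in some cell types. Of 20 genes of the interferon pathway, 7 rose, 2 fell and 11 did not pass, with a median log2 fold change of 0.32. Thus 45% of the list were called, against 63.5% of all tested genes. IRF7, an inducible interferon regulatory factor, had 56.1 CPM in LINC00665 libraries and 8.76 CPM in Vector libraries (edgeR adjusted p = 3.7e-05). The receptor genes IFNLR1 and IFNGR1 were also higher, IFNLR1 at 40.7 CPM in LINC00665 libraries and 6.92 CPM in Vector libraries (edgeR adjusted p = 0.00013) and IFNGR1 at 53.9 and 25.5 CPM (edgeR adjusted p = 4e-04). IRF2 had 56.3 CPM in LINC00665 libraries and 22 CPM in Vector libraries (edgeR adjusted p = 0.0012). IRF9, a transcription factor at the end of the pathway, did not pass, at 9.32 CPM in LINC00665 libraries and 11.2 CPM in Vector libraries (log2 fold change -0.26; edgeR adjusted p = 0.61). It changed sign without Vector replicate 2, at 0.26. The number of pathway genes that fell was 4 without Vector replicate 2, 1 without LINC00665 replicate 2 and 5 with total-count scaling.

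Protein kinase C and NF-kB, which raise APOBEC3B in human cell lines, were followed over 21 genes, 20 of them tested. Of these 11 rose, 1 fell and 8 did not pass, with a median log2 fold change of 0.62. The share called was 60%, near the 63.5% of all tested genes. PRKCQ, a protein kinase C of T cells and muscle, had 702 counts in LINC00665 libraries and 0 in Vector libraries, at least 233-fold higher against a floor of 3 counts over the group. PRKCH had 38.7 CPM in LINC00665 libraries and 13.0 CPM in Vector libraries (edgeR adjusted p = 3.4e-05), and the adaptor gene BCL10 had 79.1 and 28.4 CPM (edgeR adjusted p = 6.6e-05). The gene that fell was PRKCA, a conventional protein kinase C, at 30.6 CPM in LINC00665 libraries and 108 CPM in Vector libraries (edgeR adjusted p = 4.8e-05). RELB, the NF-kB subunit reported at the APOBEC3B promoter, had 49.9 ± 4.68 CPM in LINC00665 libraries and 46.4 ± 26.4 CPM in Vector libraries (SD, n = 3 each; edgeR adjusted p = 0.82). It passed as higher without Vector replicate 3 (edgeR adjusted p = 0.033) and was at -0.21 without Vector replicate 2. NFKB1 had 126 CPM in LINC00665 libraries and 60.9 CPM in Vector libraries (log2 fold change 1.05; edgeR adjusted p = 0.016), and lost its call without LINC00665 replicate 1 (edgeR adjusted p = 0.051) and without LINC00665 replicate 2 (edgeR adjusted p = 0.063). Without LINC00665 replicate 3 the number of these genes that rose was 7.

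RB/E2F, DREAM and related cell cycle genes, which hold APOBEC3B down outside of the cell cycle's later phases, went both ways. Of 23 tested, 7 rose, 6 fell and 10 did not pass, with a median log2 fold change of 0.28. Calls made up 56.5% of the list, against 63.5% of all tested genes. CDKN1A, the cyclin-dependent kinase inhibitor p21, had 858 CPM in LINC00665 libraries and 219 CPM in Vector libraries (log2 fold change 1.97; edgeR adjusted p = 9.7e-05). RB1, the retinoblastoma repressor, had 7.17 CPM in LINC00665 libraries and 96.5 CPM in Vector libraries, 13.4-fold lower (edgeR adjusted p = 1.9e-06), and E2F3, an activator that RB1 holds back, had 472 and 77.6 CPM (edgeR adjusted p = 3.5e-06). MYBL2, the B-MYB partner of MuvB, did not pass at 421 CPM in LINC00665 libraries and 321 CPM in Vector libraries (edgeR adjusted p = 0.14), but did without Vector replicate 3 (edgeR adjusted p = 0.016). The number that fell was 2 without Vector replicate 1, without LINC00665 replicate 1 or without LINC00665 replicate 3, and 3 without LINC00665 replicate 2.

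Epithelial and early response transcription factors that have been reported upstream of APOBEC3A or APOBEC3B were mostly higher. Of 14 tested, 11 were higher, 0 lower and 3 did not pass. This is 78.6% called, against 63.5% of all tested genes, of which 34.2% were called higher. The median log2 fold change of the list, 3.99, was the same with GRHL2 and GRHL3 at their lower bounds. GRHL2, a grainyhead factor of epithelia, had 4573 counts in LINC00665 libraries and 0 in Vector libraries, at least 1520-fold higher. TP63, a transcription factor of basal epithelia, had 110 CPM in LINC00665 libraries and 0.087 CPM in Vector libraries (edgeR adjusted p = 1e-07). FOSL1, an AP-1 subunit, had 1560 CPM in LINC00665 libraries and 57.6 CPM in Vector libraries (edgeR adjusted p = 5e-07), and STAT6 had 68.4 and 0.361 CPM (edgeR adjusted p = 4.5e-07). TP63 and GRHL2 are themselves epithelial genes, and TP63 is also on the urothelial list, of which 12 of 13 tested genes were higher and 0 lower, some of them near 0 in the Vector libraries. APOBEC3A was above 0.1 CPM in 2 of the 3 LINC00665 libraries, and APOBEC3B overlapped between groups. With genes kept only at 1 CPM or more in all 6 libraries, 9 of the regulators were higher. Under that filter, 3111 of all 10915 genes tested were higher.

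Other restriction factors were compared with APOBEC3G and APOBEC3D as genes of the same antiviral function. Of 23 tested, 12 rose, 5 fell and 6 did not pass, with a median log2 fold change of 0.90. Calls made up 73.9% of the list, against 63.5% of all tested genes. IFI16, a sensor of foreign DNA, had 41.4 CPM in LINC00665 libraries and 0.141 CPM in Vector libraries (edgeR adjusted p = 3.7e-07), and TRIM22 had 17.4 and 0.087 CPM (edgeR adjusted p = 6.3e-07). MX1, an interferon-induced GTPase, had 32.8 CPM in LINC00665 libraries and 0.771 CPM in Vector libraries (edgeR adjusted p = 1.8e-06). IFITM1, which blocks viral entry, had 2293 counts in LINC00665 libraries and 3 in Vector libraries, 760 times as many per unit of depth (95% interval from counting, 260 to 3690). Several of these genes entered the test only through the group in which they were high. With genes kept only at 1 CPM or more in all 6 libraries, 3111 of all 10915 genes tested were higher and 3146 lower. Of the list, 4 were then higher and 5 lower. The number that fell was 3 without LINC00665 replicate 2 or without LINC00665 replicate 3.

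The CUL5 ligase and CBFB, which viral Vif proteins recruit against APOBEC3 proteins, and RNA-binding partners of the APOBEC3 proteins made a list of 13. Of these, 2 rose, 7 fell and 4 did not pass, with a median log2 fold change of -0.39. Calls made up 69.2% of the list, near the 63.5% of all tested genes, of which 29.3% were called lower. CUL5 had 14.0 CPM in LINC00665 libraries and 28.1 CPM in Vector libraries (edgeR adjusted p = 0.0014). SSB, the La protein, had 22.3 CPM in LINC00665 libraries and 72.7 CPM in Vector libraries (edgeR adjusted p = 5.6e-05), and YBX1, another RNA-binding protein, had 1130 and 1880 CPM (edgeR adjusted p = 0.0016). UBE2F, the NEDD8-conjugating enzyme that activates CUL5, was one of those that rose, at 50.7 CPM in LINC00665 libraries and 16.8 CPM in Vector libraries (edgeR adjusted p = 0.0011). Without LINC00665 replicate 3 the number that rose was 1.

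**Figure D4:**
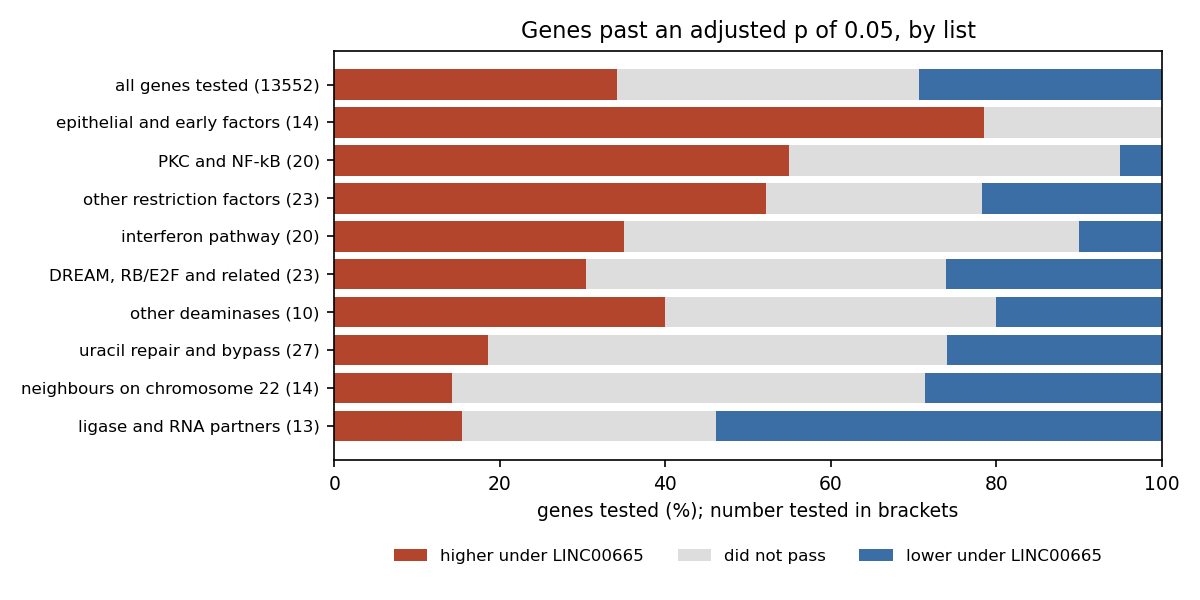
Percent of tested genes that were higher, did not pass or were lower in the LINC00665 libraries at an adjusted p of 0.05, for all genes and for each list, with the number tested in brackets. Of all genes tested, 34.2% are higher and 29.3% lower. Beside this, 11 of 14 epithelial and early factors are higher and 7 of 13 ligase and RNA partners lower. Repair genes are split (5 and 7 of 27).

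Genes whose pattern over the 6 libraries was most like a member's were found by the root mean square difference of centred log2(CPM + 0.5) values, among genes with a mean of at least 5 CPM. For APOBEC3G these were GLUL, glutamine synthetase (0.10; 508 CPM in LINC00665 libraries and 41.6 CPM in Vector libraries), OAF (0.10; 64.0 and 5.19 CPM) and LAT, an adaptor of T cell receptor signalling (0.11; 17.3 and 1.06 CPM). For APOBEC3D they were MACROH2A2, a histone variant (0.073; 43.3 CPM in LINC00665 libraries and 93.5 CPM in Vector libraries), CARD8 (0.091) and ULK3 (0.093). For APOBEC3C they were SYNGR1 (0.031; 20.1 CPM in LINC00665 libraries and 15.2 CPM in Vector libraries), which lies in the same region of chromosome 22, RFXANK (0.044) and ANXA2 (0.048). For APOBEC3F they were STAT2, of the interferon pathway (0.052; 56.6 CPM in LINC00665 libraries and 42.9 CPM in Vector libraries), MID2 (0.057) and ZKSCAN5 (0.073), and for APOBEC3B they were CCDC124 (0.047), TMEM11 (0.052) and SVBP (0.057). These likenesses are over 6 libraries that fall into the same pair of groups for every gene.

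Markers of other cell types also differed between the groups. The list of 8 endothelial markers had a summed level of 15.6 to 19.4 CPM in LINC00665 libraries, against 0.28 to 1.14 CPM in Vector libraries. KDR, FLT1 and VWF, which had 0 counts in Vector libraries, passed the count filter only through the LINC00665 libraries, and CDH5, with 28 counts in LINC00665 libraries and 25 in Vector libraries, was not tested. The list of 9 fibroblast markers summed to 244 to 271 CPM in LINC00665 libraries, against 2.07 to 4.10 CPM in Vector libraries. THY1 made up most of that sum, with 9686 counts in LINC00665 libraries and 3 in Vector libraries, while FAP had 208 and 0 counts. Of the kidney tubule markers, PAX8 was lower, at 14.7 CPM in LINC00665 libraries and 262 CPM in Vector libraries. What these markers contribute to the level of APOBEC3G or APOBEC3D was not tested.

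**Figure D5:**
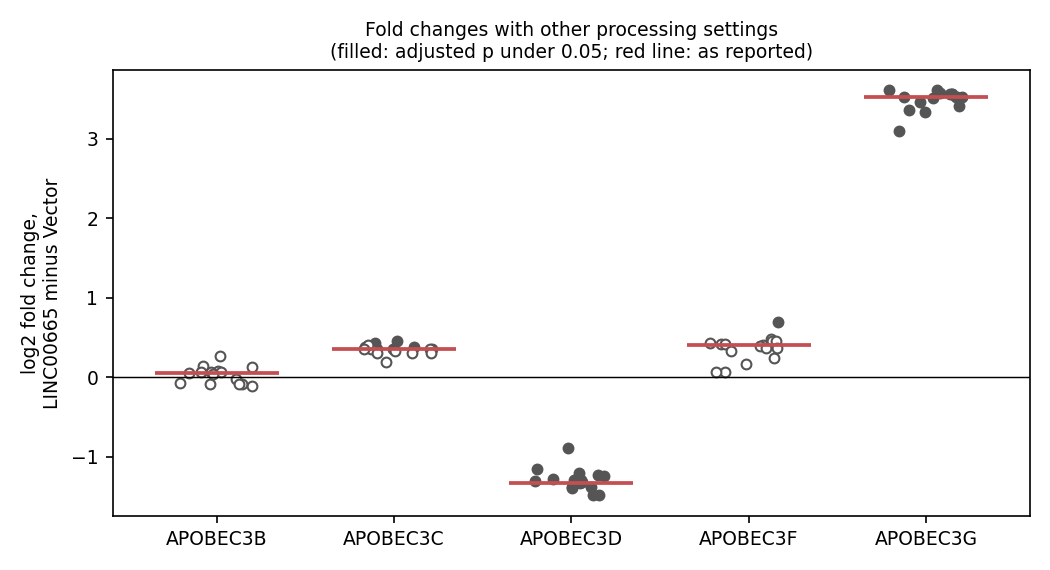
Log2 fold change (LINC00665 minus Vector) of the 5 tested APOBEC3 genes under 16 other processing settings (points, filled where the adjusted p was under 0.05), with a red line at the value as reported. APOBEC3G stays between 3.10 and 3.61 and APOBEC3D between -1.49 and -0.89, all filled, while APOBEC3B lies on both sides of 0 and none of its points is filled.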

How the data were processed

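RNA was measured in 3 libraries labelled LINC00665 and 3 labelled Vector. TRIzol extraction of total RNA and the Illumina TruSeq RNA kit are given per the labels' protocols. HISAT2 2.0.4 and the build hg38 are named, with no role, in the submitters' processing notes. For the counting tool, annotation and strand setting, nothing is stated (not given in the sources used here). The deposited table holds, per the file headers, the authors' estimated counts per gene, which need not be whole, and the authors' FPKM, in which the fragment count is divided by library size and by the gene lengths the authors used.

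Each estimated count was rounded to a whole number. Genes were kept by edgeR's filterByExpr (minimum count 10), scaled by TMM and tested with glmQLFit and glmQLFTest (edgeR 4.0.16, R 4.3.3), with Benjamini-Hochberg adjustment over 13552 genes, a threshold of 0.05 and no minimum fold. CPM uses the TMM library sizes. SE is the absolute log2 fold change divided by the square root of F, and intervals are 95%. Counting intervals are exact binomial intervals of the ratio. Floors are 3 counts over a group. Positions come from GENCODE v29 (GRCh38), which holds 20171 of the 20289 gene IDs. DESeq2 1.42.0 and limma 3.58.1 were run as alternatives, and the scripts were tested on simulated data.

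The members and gene lists were chosen with earlier results of these data known. Named genes are the 7 members, the other APOBEC genes, the genes of smallest p in each list (at most 4), and UNG, RELB, NFKB1, CDKN1A, MYBL2, IRF9, PTPRC, CBX7 and CBX6. CD2 and the other leukocyte genes given at 0 counts, GRHL3 and UPK1A were named after their values were seen. No pair of libraries with the same label agreed within sampling noise. Same-numbered libraries of the groups did not deviate together (correlations of 0.152, -0.132 and -0.154), so the fits are unpaired. Some genes of this rule are not reported here. Samples were compared only between the labelled groups, and the p-values measure the spread between these 3 libraries a group.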

Additional observations from a re-analysis of the deposited data

How the results depend on the processing

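APOBEC3G and APOBEC3D kept their direction and their side of the threshold in all 16 other fits. With a minimum of 1 on the absolute log2 scale also required, 5691 genes were called, 2156 of them lower. With 1 library left out, 7458 to 9258 of all genes passed the threshold, the most without Vector replicate 2. The number of APOBEC3 genes past the threshold was then 2 to 5, also highest without Vector replicate 2, and the number that was higher was 1 to 4. It was 2 with DESeq2's size factors in edgeR, with no filter on low counts, with at least 1 CPM in all 6 libraries, in DESeq2, in limma-voom and in limma-trend on log2(FPKM + 1) or log2(FPKM + 0.1), the second gene being APOBEC3C, or APOBEC3A with no filter. APOBEC3B changed sign, to -0.11 with total-count scaling and -0.09 in both limma-trend fits, and ranged from -0.09 to 0.26 with 1 library left out. RELB was at -0.06 with total-count scaling and at -0.21 to 0.65 with 1 library left out, and IRF9 at -0.63 to 0.26. The sum of the counts of APOBEC3D and APOBEC3F, which is mostly APOBEC3F and so no measure of APOBEC3D, was at 0.05. The log2 ratio of the summed APOBEC3 CPM was 0.34 with total-count scaling, against 0.50 as reported. Total-count scaling moved the median log2 fold change of all tested genes to -0.13, against 0.03, and gave 4174 genes higher and 4770 lower, so that 46.7% of calls were higher, against 53.8%. Of the counts of list genes under other settings, 487 stayed within 1.5 times the reported count and 53 did not. The cause was not tested in any of these cases.

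The replicate numbers did not pair the libraries. With the replicate number as a block, 7924 genes were called, 4419 higher and 3505 lower, and 2 APOBEC3 genes, APOBEC3G at 3.53 (edgeR adjusted p = 6.3e-05) and APOBEC3D at -1.32 (edgeR adjusted p = 0.0048). APOBEC3A and APOBEC3H had too few counts for a test, and thinning all libraries to the smallest, chosen after seeing the data, left 2 APOBEC3 genes called.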
